A study of Mus musculus with 8 samples.

Results

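The cytosolic ribosomal protein genes are those whose symbol is Rpl or Rps followed by a number (with at most one letter and one more digit), or Rplp followed by a number, which leaves out the Rps6k kinases. In the 2 deposited count tables this rule found 53 of 10060 genes, namely 32 of the large (60S) subunit, 18 of the small (40S) subunit and the 3 stalk genes Rplp0, Rplp1 and Rplp2. The table of last-exon sites, which counts reads at a proximal and a distal polyadenylation site of the 3′-most exon, held 44 of them among 7951 genes. The table of upstream and last-exon ends, which counts reads of transcripts that stop early, in an exon before the last, beside those of the 3′-most exon, held 23 among 6147 genes, and 14 genes were in both tables. The symbols take in 3 paralogs, Rpl22l1, Rpl7l1 and Rps27l, and miss ribosomal proteins with other names such as Rpsa.

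Total brain was taken from 5 Cstf2 D50A and 3 wild-type mice. Cstf2 D50A mice carry 1 exchanged residue in the RNA-binding domain (RRM) of CSTF2, a cleavage stimulation factor subunit that contacts pre-mRNA just past the polyadenylation site, and the study asked how it alters 3′ end formation. Mice of both genotypes were untreated, 50 days old, and came from 1 colony backcrossed to C57BL/6NCrl and then bred within itself, with wild-type littermates as controls. Each library was made from 1 animal, the labels used here give neither sex nor batch, and replicate numbers serve only as names. A 3′ end kit that primes on the poly(A) tail was used, so each read marks the end of 1 transcript and a count is not scaled by transcript length.

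A ribosome carries 1 copy of most ribosomal proteins, and their genes are expressed together in every cell. Their mRNAs are short and abundant, and most begin with a pyrimidine tract (the 5′ terminal oligopyrimidine, or TOP, motif) through which the LARP1 protein and the mTORC1 kinase control translation. In neurons they are found in the soma and also in axons and dendrites.

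RefSeq promoter windows (GRCm38.p6, from 250 bases before to 50 after the annotated start) were found for 43 of the 53 genes. A run of 6 or more C or T on the sense strand, reaching within 25 bases of the start on either side, was present in 35 of 50 windows of these genes (70.0%) and in 43.9% of 32851 windows of all genes. The letters CCGGAAG, searched on both strands of the 300 bases, occurred in 17 of the 50 windows (34.0%) and in 8.86% of all windows. The windows below are shown because these 9 genes recur in the results: the first 3 for their site shares, Rpl38 and Rpl13a for their levels, Rps6 and Rps9 for the small subunit, and Rps3 and Rpl26 as genes of the results whose window holds no such run. Rps16 and Rpl37a, also described below, have none either. Capitals mark the pyrimidine run, and each sequence is 30 bases around the start, read 5′ to 3′ on the gene's strand.
Rpl28 (chr7:4792955-4792984, plus strand): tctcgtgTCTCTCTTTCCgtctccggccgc
Rpl27a (chr7:109519185-109519214, plus strand): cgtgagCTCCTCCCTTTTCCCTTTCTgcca
Rpl15 (chr14:18270967-18270996, minus strand): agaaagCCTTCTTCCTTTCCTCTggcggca
Rpl38 (chr11:114668570-114668599, plus strand): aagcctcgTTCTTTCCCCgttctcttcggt
Rpl13a (chr7:45128726-45128755, minus strand): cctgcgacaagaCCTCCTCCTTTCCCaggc
Rps6 (chr4:86857348-86857377, minus strand): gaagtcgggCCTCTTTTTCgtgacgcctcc
Rps9 (chr7:3704031-3704060, plus strand): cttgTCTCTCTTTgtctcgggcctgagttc
Rps3 (chr7:99483690-99483719, minus strand): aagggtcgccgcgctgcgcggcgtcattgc
Rpl26 (chr11:68901556-68901585, plus strand): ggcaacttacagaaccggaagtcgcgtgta
The run was 20 letters long in Rpl27a and 17 in Rpl15, against 9 in Rps9. These runs lie at the 5′ end of the genes, whereas the libraries read the 3′ end, so the windows describe the gene set and were not set against any count.

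The libraries held 10177902 to 13449054 reads in Cstf2 D50A mice and 9616953 to 17530761 in wild-type mice in the last-exon table. The upstream table held 7768925 to 10279635 reads in Cstf2 D50A mice and 7075383 to 13145966 in wild-type mice. Cstf2 had 8.52 ± 0.15 log2 CPM in Cstf2 D50A (SD, n = 5) and 8.52 ± 0.13 in wild type (SD, n = 3). Log2 CPM is the log of a gene's reads relative to its library's total after that total is scaled by the TMM method. As the mutation changes 1 residue, the Cstf2 count does not check the labels. One wild-type and one mutant library stood apart. Wild type 1 had the highest level of the 8 libraries in 29% of all genes tested, and Cstf2 D50A 5 differed from the other 4 mutants in markers of cerebellar granule cells. The mean of 9 measured granule cell markers of 12 was 5.18 to 5.22 log2 CPM in mutants 1 to 4, 7.39 in mutant 5, and 7.32 to 7.67 in wild type, and none of the 9 was at 0. Summed, these 9 genes reached 642 to 2525 CPM in Cstf2 D50A and 2239 to 3069 CPM in wild type. The split was not confined to granule cells. For Purkinje cells, also of the cerebellum, 3 of 7 markers were measured in the last-exon table. Their mean was 5.40 to 5.53 log2 CPM in mutants 1 to 4, 6.80 in mutant 5, and 6.79 to 7.14 in wild type. Total brain is a mixture, and in such samples fewer cells of a type and less RNA per cell cannot be told apart. The labels do not give how much cerebellum each sample held, and its part was not tested.

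Most ribosomal protein genes ended almost always at one site. Of the 44 genes in the last-exon table, 31 (70.5%) had over 90% of their reads at the proximal site, against 17.3% of all 7876 pairs tested. Another 4, Rpl22l1, Rpl32, Rpl39 and Rps26, had over 90% at the distal site, and 9 used both. The median distal share was 1.56% in these genes and 53.2% in all pairs, and the sites lay a median of 296.5 bases apart, against 629 bases over all pairs. In 3 of the 44 genes (Rpl28, Rpl30 and Rps12) the sites were farther apart than the whole RefSeq gene is long, which held for 73 of 7778 pairs (0.939%) with a gene length. For Rpl28 the distance was 5517 bases and the gene length 1583 bases, so its sites cannot both lie within the gene as RefSeq annotates it. The files do not say to which transcript such reads belong. Ribosomal protein genes also have many processed pseudogenes, so counts of near-identical copies are uncertain: Rps27 carried the same counts as Rps27rt in all libraries.

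**Figure D1:**
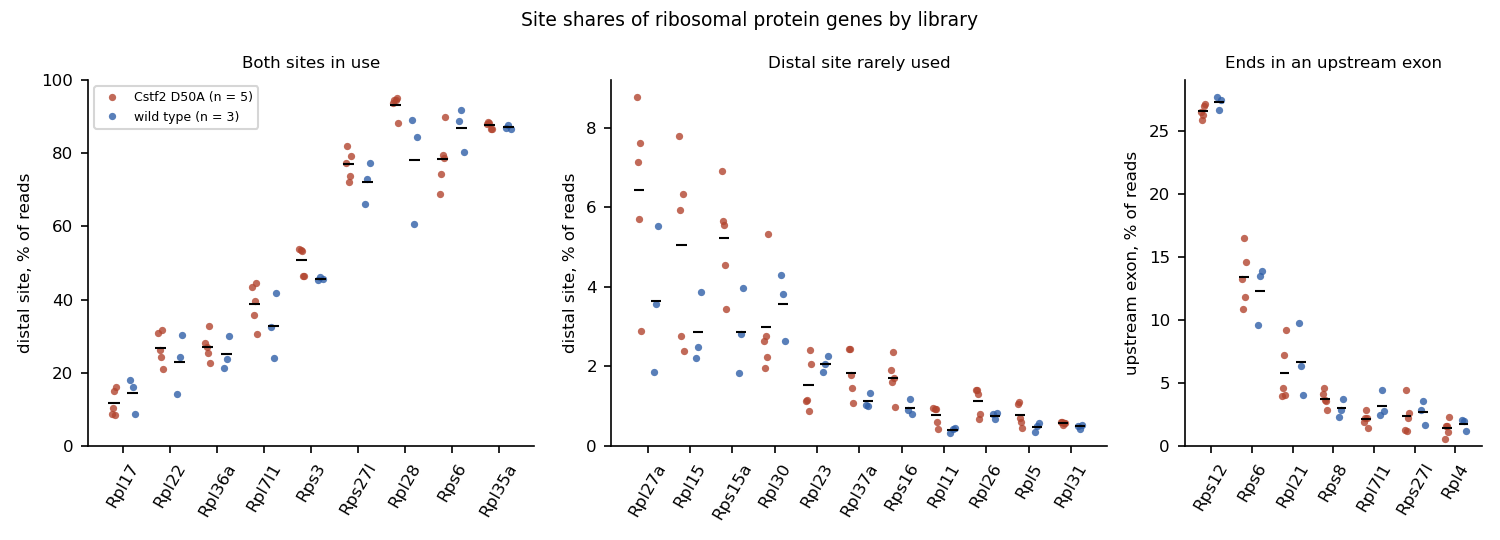
Site shares of ribosomal protein genes in each library, with Cstf2 D50A (n = 5) left of wild type (n = 3) and bars at the group means. The left and middle panels give the distal site's share of last-exon reads in percent, for genes that use both sites and for genes that rarely use the distal one. The right panel gives the share ending in an upstream exon. In Rps3 every mutant point lies above the wild-type points, and the lone low mutant point of Rpl28 is mutant 5.

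No ribosomal protein gene passed the test for a change in site share. Across 7876 pairs, edgeR's quasi-likelihood test on the site-by-genotype term, with Benjamini-Hochberg adjustment, called 0 pairs (0%) at an adjusted p under 0.05, limma called 0, and DESeq2 called 21 (0.267%), none of them a ribosomal protein gene. At an unadjusted p under 0.05, 5 of the 44 genes leaned toward the distal site in mutants, where 8.67% of all pairs did, and 0 leaned toward the proximal site, where 4.25% of all pairs did. The median log2 change was 0.22 over these genes (0.13 to 0.33 with 1 library left out, lowest without wild type 1) and 0.12 over all pairs. Without wild type 1 and mutant 5 together it was 0.11, against 0.13 over all pairs. Of the 44 genes, 32 were above 0, against 59.2% of all pairs. Adjusted p-values of the 44 genes ran from 0.38 to 0.95 (edgeR).

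Among genes of the large subunit, Rpl28, a protein of the 60S particle, had the largest difference. Its distal share was 93.7, 94.5, 94.5, 95.2 and 88.2% in Cstf2 D50A 1 to 5, and 89.1, 60.6 and 84.5% in wild type 1 to 3. The group means were 93.2 ± 2.84% in Cstf2 D50A (SD, n = 5) and 78.0 ± 15.3% in wild type (SD, n = 3). Mutants 1 to 4 were above every wild-type library, mutant 5 was within the wild-type range, and wild type 2 was the lowest of all. The log2 change was 1.86 (SE 0.51, unadjusted p = 0.00445, adjusted p = 0.38, edgeR). Rpl11, which together with Rpl5 can bind the p53 regulator Mdm2, had 0.964, 0.941, 0.925, 0.599 and 0.436% distal reads in Cstf2 D50A, against 0.33, 0.427 and 0.442% in wild type. Only mutant 5 fell within the wild-type range, and the log2 change was 0.92 (SE 0.28, adjusted p = 0.38, edgeR). Rpl37a had 1.84 ± 0.60% distal reads in Cstf2 D50A and 1.13% in wild type, with mutant 5 again inside the wild-type range.

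Rpl27a and Rpl15, structural proteins of the large subunit, varied widely among mutants. Rpl27a had 8.78, 7.13, 5.71, 7.62 and 2.9% distal reads in Cstf2 D50A, against 1.86, 3.58 and 5.53% in wild type. Rpl15 had 7.79, 5.94, 2.77, 6.34 and 2.4% in Cstf2 D50A, against 2.21, 2.49 and 3.88% in wild type. In both genes mutant 5 was the lowest mutant and wild type 3 the highest wild type, so the genotypes overlapped, and the log2 changes of 0.90 and 0.77 did not pass the test. In the other direction, Rpl6, Rpl23 and Rpl21 had log2 changes of -0.62, -0.53 and -0.51 with distal shares of at most 2.41% in any library.

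In the small subunit, Rps3, a protein at the mRNA entry channel, was the only gene of the 44 whose genotypes did not overlap in site share, a pattern that 2.53% of all pairs showed toward the distal site. Its distal share was 53.7, 53.6, 53.4, 46.5 and 46.4% in Cstf2 D50A, against 45.4, 46.2 and 45.5% in wild type. Mutants 1 to 3 were well above the wild types, while mutants 4 and 5 exceeded the highest wild type by little. The log2 change was 0.29 (SE 0.16, adjusted p = 0.42, edgeR), and the sites lie 25 bases apart. Rps15a had 6.92, 5.67, 5.55, 4.56 and 3.44% distal reads in Cstf2 D50A, against 1.84, 2.82 and 3.96% in wild type, a log2 change of 0.93 (SE 0.29, adjusted p = 0.38, edgeR). Rps16 had 1.71 ± 0.50% in Cstf2 D50A and 0.962% in wild type. In Rps15a and Rps16 every mutant but mutant 5 was above the wild-type libraries.

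Rps23, which sits in the decoding centre, and Rps6, the target of the S6 kinases, had lower distal shares on average in mutants. Rps23 had 2.09, 2.76, 3.29, 3.89 and 14.1% distal reads in Cstf2 D50A, against 10.4, 13.5 and 4.84% in wild type. Mutant 5 was above every other library, and the log2 change was -1.22 (SE 0.61, adjusted p = 0.41, edgeR). Rps6 had 68.9, 74.3, 79.6, 78.7 and 89.9% in Cstf2 D50A, against 88.7, 91.7 and 80.2% in wild type. Its log2 change was -0.91 (SE 0.46), on 334 reads per library on average, and mutant 5 was again beside the wild types. Mutant 5 had its granule cell markers at wild-type level. Over all 44 genes, its share was inside the wild-type range or nearer to it than any other mutant in 30 (68.2%). This was near the 67.3% of all pairs. Mutant 5 was the only mutant inside the wild-type range in 9 of the 44 (20.5%), against 13.1% of all pairs. The part of the granule cells in these shares was not tested.

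Transcripts that end in an upstream exon were rare in these genes. Of the 23 genes in the upstream table, 21 had over 90% of reads in the 3′-most exon, against 60.6% of all 6001 pairs tested. Rps12, a small subunit protein, was the exception with a constant share: 73.5, 74.1, 73.7, 73.0 and 72.9% of its reads were in the 3′-most exon in Cstf2 D50A, against 72.3, 73.3 and 72.5% in wild type. The means were 73.4 ± 0.51% in Cstf2 D50A (SD, n = 5) and 72.7 ± 0.53% in wild type (SD, n = 3), a log2 change of 0.054 (SE 0.17). Rps6 had 86.6% of reads in the 3′-most exon in Cstf2 D50A and 87.7% in wild type. Rpl21 had 94.2% in Cstf2 D50A and 93.3% in wild type.

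In this comparison edgeR and limma called 0 of 6001 pairs (0%) and DESeq2 called 5 (0.0833%), with no ribosomal protein gene among them. Of the 23 genes, 13 had a log2 change above 0, against 62.2% of all pairs. At an unadjusted p under 0.05, 0 of the 23 genes leaned toward the 3′-most exon in mutants, where 10.4% of all pairs did, and 1 leaned toward the upstream exon, where 3.63% did. The median log2 change of the 23 genes was 0.054, against 0.17 over all pairs. With 1 library left out it ran from 0.015 (without wild type 2) to 0.21 (without mutant 5), where all pairs also had 0.21. The 1 gene was Rps14, a small subunit protein: its share in the 3′-most exon was 99.93 to 99.96% in Cstf2 D50A and 99.97% in each wild-type library, so the groups did not overlap (1.65% of all pairs did so in this direction, and 4.23% in the other, where 0 of the 23 genes did), but the log2 change of -0.69 (SE 0.27, adjusted p = 0.301, edgeR) rests on 10 to 28 upstream reads per library in Cstf2 D50A and 12 to 20 in wild type.

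The levels of ribosomal protein genes were lower on average in Cstf2 D50A than in wild type, and this difference lay mainly in 1 wild-type library. The genes took 3.16, 3.32, 3.46, 3.21 and 3.40% of the reads of the last-exon table in Cstf2 D50A 1 to 5, against 6.64, 3.84 and 3.43% in wild type 1 to 3. The counting error of these shares was small, with 95% Wilson intervals of 3.15 to 3.17% in Cstf2 D50A 1 and 6.63 to 6.66% in wild type 1. Wild type 1 stood apart from the other 7 libraries, wild type 2 was slightly above all mutants, and wild type 3 was inside the range of the mutants. In the upstream table the shares were 3.07, 3.25, 3.53, 3.12 and 3.33% in Cstf2 D50A, against 6.81, 3.83 and 3.34% in wild type, but the 2 tables share reads and this is no independent check.

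**Figure D2:**
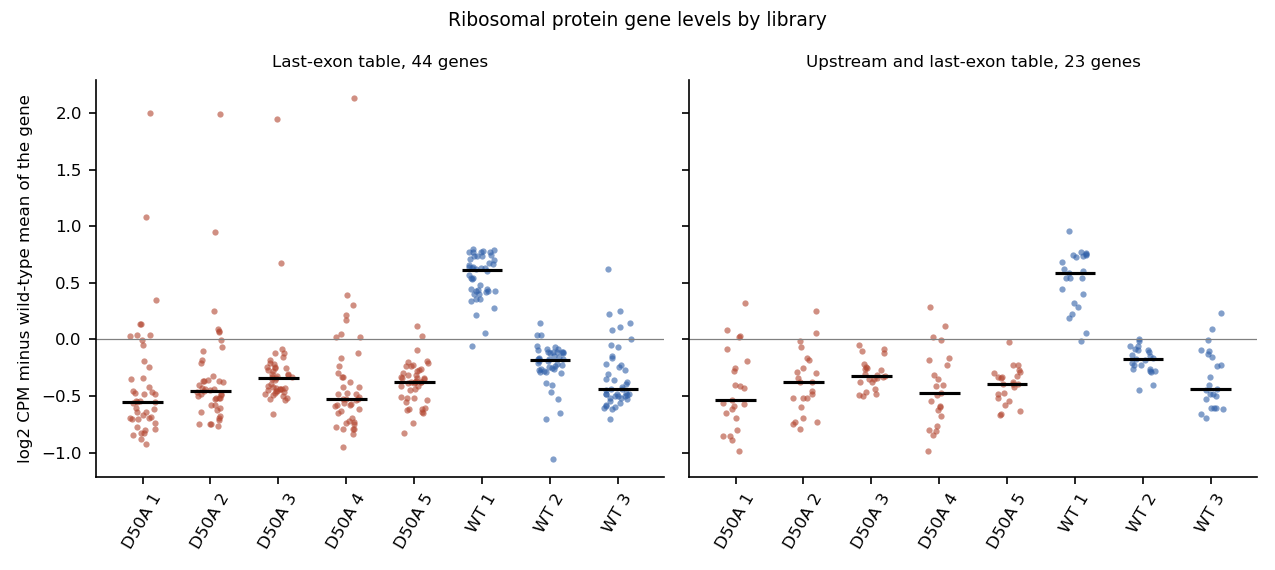
Level of each ribosomal protein gene in each library, as log2 CPM minus the mean of the 3 wild-type libraries for that gene, with Cstf2 D50A (D50A 1 to 5) left of wild type (WT 1 to 3). Each point is 1 gene and the bar is the median of the library. The medians are -0.55 to -0.34 in the mutants and 0.61, -0.18 and -0.44 in wild type 1 to 3, and the topmost point of mutants 1 to 4 is Rpl28.

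Across 7876 genes of the last-exon table, edgeR called 0 genes (0%) for level, limma 0 and DESeq2 26 (0.33%), of which 1 was a ribosomal protein gene, Rpl28. At an unadjusted p under 0.05, 29 of the 44 genes were lower in mutants, against 7.05% of all genes, and 1 was higher, against 7.29%. The median log2 change was -0.52 over the 44 genes and 0.01 over all genes, 41 of the 44 were below 0, against 49.2% of all genes, 3 were above 0, against 50.8%, and the adjusted p-values were 0.343 to 0.904 (edgeR). In 4 of the 44 genes (9.09%, namely Rpl32, Rpl38, Rpl6 and Rps15a) every mutant was below every wild type, against 2.31% of all genes. In 0 of the 44 was every mutant above every wild type, against 2.45% of all genes. Without wild type 1 the median was -0.16, against -0.0033 over all genes. In that fit 2 genes were lower at an unadjusted p under 0.05 (Rpl38 and Rpl6), where 1.57% of all genes were.

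**Figure D3:**
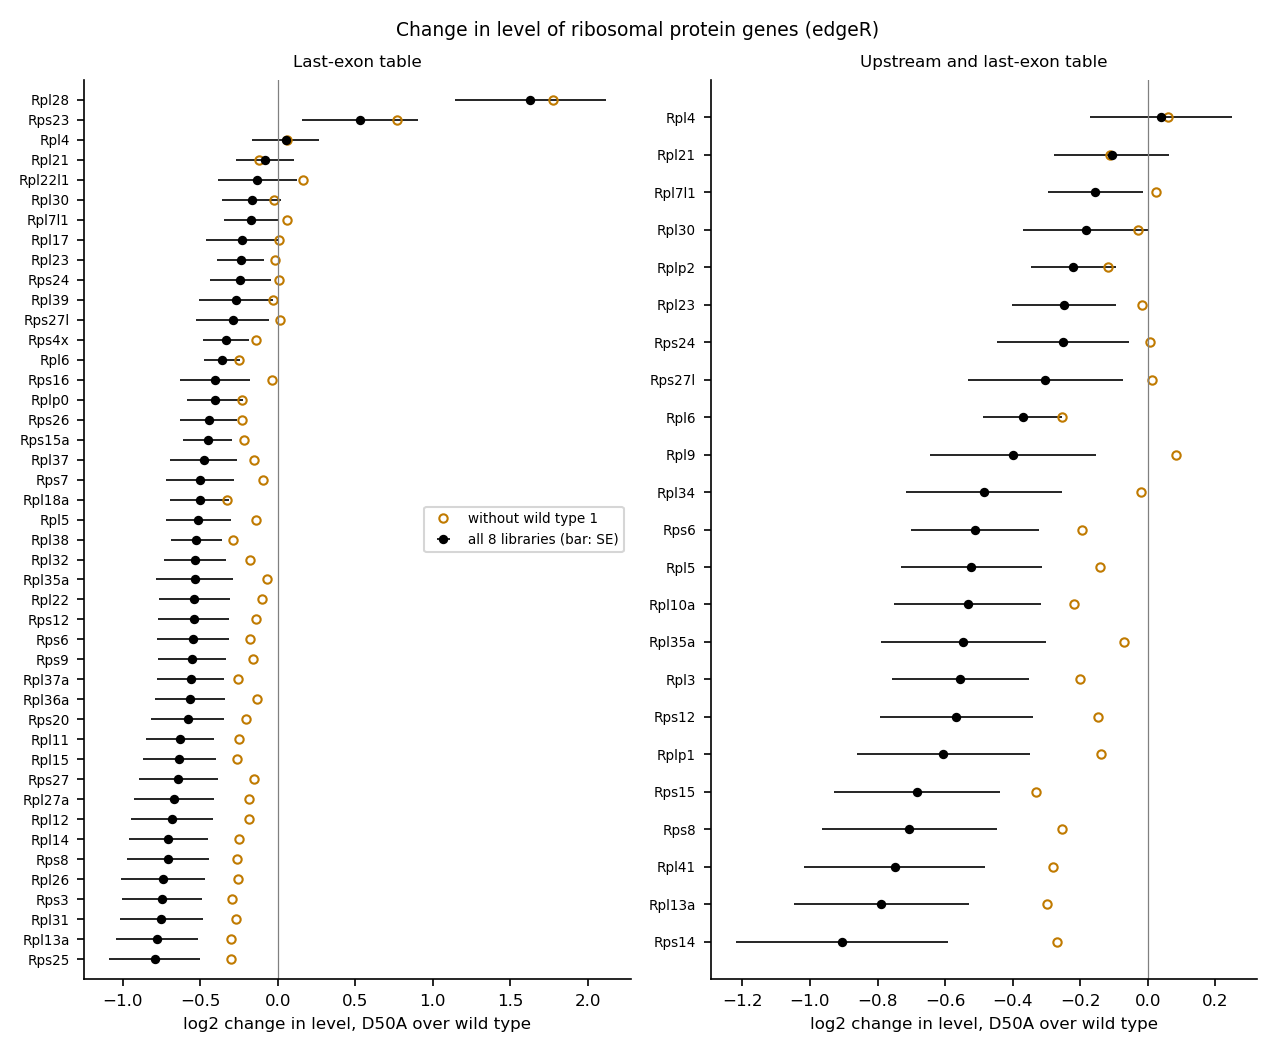
The log2 change in level, Cstf2 D50A over wild type, of each ribosomal protein gene in the last-exon table (left, 44 genes) and the upstream table (right, 23 genes), from edgeR. Filled points with bars are the change and its SE over all 8 libraries, and open circles are the change without wild type 1, which lie nearer to 0 than the filled points for most genes. Rpl28 is the highest gene on the left with 1.63, and Rps25 the lowest with -0.79.

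The genes of the 2 subunits had like medians. The 27 genes of the large subunit had a median log2 change of -0.53, with 16 lower and 1 higher at an unadjusted p under 0.05. The 16 of the small subunit had a median of -0.52, with 12 lower and 0 higher. Over all genes, 7.05% were lower and 7.29% higher. Without wild type 1 these medians were -0.15 for the large and -0.16 for the small subunit. Of the stalk proteins, which form the flexible arm that recruits elongation factors, Rplp0 had a log2 change of -0.41 (SE 0.18) in the last-exon table. In the upstream table Rplp1 had -0.61 (SE 0.26) and Rplp2 -0.22 (SE 0.13).

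In the large subunit, Rpl13a, which can leave the ribosome to silence inflammatory mRNAs, had 1944, 2080, 2526, 2081 and 2417 CPM in Cstf2 D50A, against 5972, 3095 and 2311 CPM in wild type. Wild type 1 was far above every other library while wild type 3 was below 2 of the mutants, and the log2 change was -0.78 (SE 0.26, adjusted p = 0.343, edgeR) or -0.30 without wild type 1. Rpl31 had 970 to 1295 CPM in Cstf2 D50A, against 2938, 1534 and 1127 CPM in wild type, a log2 change of -0.75 (SE 0.27). Rpl26, which can bind p53 mRNA, had 631 to 858 CPM in Cstf2 D50A, against 1926, 984 and 744 CPM in wild type, a log2 change of -0.74 (SE 0.27). In both genes the order of the wild types was that of Rpl13a, with wild type 3 among the mutants.

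Rpl38, known in mice for its part in translating Hox mRNAs, and Rpl6 were 2 of the 4 genes whose genotypes did not overlap. Rpl38 had 9.19, 9.29, 9.34, 9.20 and 9.22 log2 CPM in Cstf2 D50A, against 10.17, 9.65 and 9.39 in wild type. Its log2 change was -0.53 (SE 0.16, adjusted p = 0.343, edgeR), and -0.29 (SE 0.11) without wild type 1. Rpl6 had 8.67, 8.70, 8.83, 8.75 and 8.70 log2 CPM in Cstf2 D50A, against 9.30, 9.02 and 8.93 in wild type. Its log2 change was -0.36 (SE 0.12), and -0.25 (SE 0.091) without wild type 1. In both genes all 3 wild types were above all 5 mutants, with wild type 3 just above the highest mutant. Rpl38 was named after its values had been seen.

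In the small subunit, Rps25, needed for initiation at some viral and cellular internal entry sites, had 1903, 2223, 2485, 1862 and 2937 CPM in Cstf2 D50A, against 6283, 3370 and 2214 CPM in wild type. Its log2 change of -0.79 (SE 0.29, adjusted p = 0.343, edgeR) was the lowest of the 44 genes, and it was -0.30 without wild type 1. Rps3 had 1208 to 1706 CPM in Cstf2 D50A, against 3693, 1869 and 1590 CPM in wild type, a log2 change of -0.75 (SE 0.26). Rps9, the gene with the most reads among the 44, had 2430 to 2761 CPM in Cstf2 D50A, against 5596, 3150 and 2549 CPM in wild type, a log2 change of -0.55 (SE 0.22). Rps14, lost in a human anaemia with failed ribosome assembly, had 3059, 3509, 4301, 3072 and 4377 CPM in Cstf2 D50A in the upstream table, against 11759, 5071 and 3756 CPM in wild type. Here wild type 1 was far above the rest, and the log2 change of -0.91 (SE 0.32, adjusted p = 0.327, edgeR) became -0.27 without it.

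Over the 6001 genes of the upstream table, edgeR, limma and DESeq2 each called 0 genes (0%) for level. At an unadjusted p under 0.05, 13 of the 23 ribosomal protein genes were lower in mutants, against 7.47% of all genes, and 0 were higher, against 7.6%. Of the 23 genes 22 were below 0, against 49.4% of all genes, and 1 (Rpl4) above 0, against 50.6%. The genotypes did not overlap in 1 gene that was lower (Rpl6), against 2.5% of all genes, and in 0 that were higher, against 2.28%. The median log2 change was -0.51, and -0.14 without wild type 1, with 1 gene (Rpl6) then lower at an unadjusted p under 0.05, where 1.7% of all genes were. Rplp1, the most abundant of them, had 4950, 5423, 6090, 4856 and 6331 CPM in Cstf2 D50A, against 13054, 7055 and 5126 CPM in wild type. Rpl41, which encodes the smallest ribosomal protein, had a log2 change of -0.75 (SE 0.27), and Rps15 had -0.68 (SE 0.25).

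The paralogs and 2 other genes had level changes nearer to 0 than the median of the 44 genes, or above 0. Other members did too, such as Rpl21 (-0.081), Rpl30 (-0.17) and Rpl17 (-0.23) in the last-exon table, so this is no trait of the paralogs. Rpl22l1, a paralog of the RNA-binding protein Rpl22, had 306, 314, 282, 348 and 196 CPM in Cstf2 D50A, against 437, 191 and 323 CPM in wild type, a log2 change of -0.13 (SE 0.26). Rpl7l1 and Rps27l, a p53 target, had -0.17 (SE 0.17) and -0.29 (SE 0.24), and without wild type 1 the 3 changes were 0.16, 0.060 and 0.013. Rpl4, which lines the exit tunnel, had a log2 change of 0.05 (SE 0.22) and Rps23 one of 0.53 (SE 0.37). For these genes the genotypes overlapped, as in all but 4 of the 44, and no direction can be given.

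Wild type 1 was the highest of the 8 libraries in 40 of the 44 genes (90.9%), against 29% of all genes, and in 21 of the 23 of the upstream table (91.3%), against 27.8%. Wild type 2 was above every mutant in 30 of the 44, against 2010 of 7876 genes. Wild type 3 lay within the range of the mutants in 38 of the 44 (86.4%), near the 78.8% of all genes. The median SD of these genes among mutants was 0.18 log2 units, against 0.58 among wild types, while over all genes it was 0.21 among mutants and 0.29 among wild types. Other measures also set wild type 1 apart: its mean log2 CPM over 8 markers of excitatory neurons of cortex and hippocampus was 7.19, against 7.93 to 8.27 in the other 7 libraries, and its granule cell marker mean of 7.67 was the highest. All 53 genes span at most 11774 bases in RefSeq, and the 1917 shortest of the other genes in the last-exon table (374 to 12709 bases) had a median deviation from the wild-type mean of 0.083 log2 units in wild type 1, against -0.082 for the 1916 longest. In the mutants those shortest genes had -0.16 to -0.0083 and the longest 0.038 to 0.21, and wild type 3, at -0.089 and 0.12, was within both ranges. With the granule cell marker mean as a covariate the median change of the 44 genes was -0.34, against -0.013 over all genes, and 43 of the 44 were below 0. As low markers were found only in mutants 1 to 4, this covariate and the genotype cannot be fully told apart. The part of gene length and RNA quality was not tested.

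**Figure D4:**
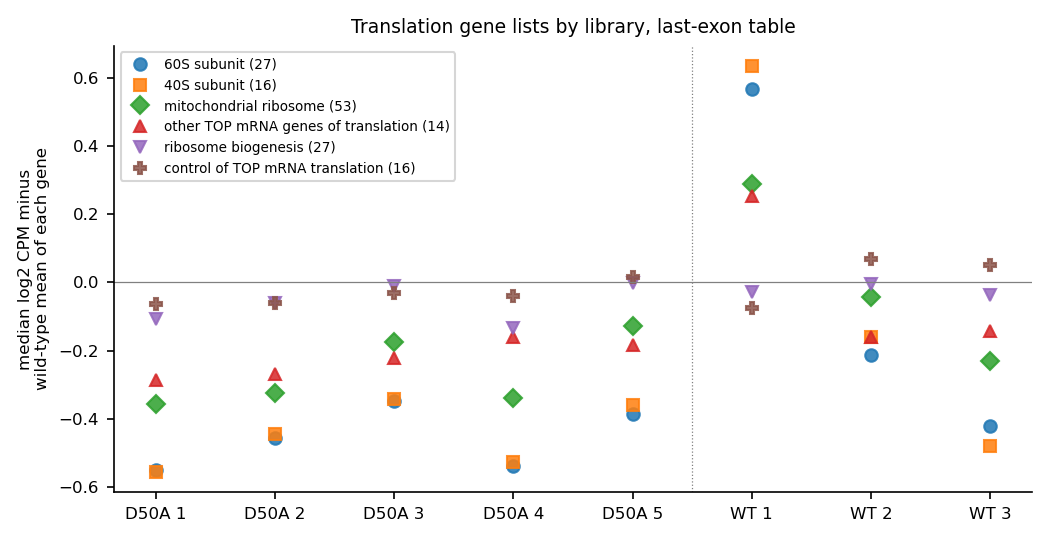
Median level of translation gene lists in each library of the last-exon table, as log2 CPM minus the wild-type mean of each gene, with the 5 Cstf2 D50A libraries left of the 3 wild types and the number of genes measured in brackets. The 60S and 40S medians reach 0.57 and 0.63 in wild type 1, while ribosome biogenesis genes are at -0.03 and control genes at -0.07 in that library.

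Other genes of the translation machinery were set beside them. Rpsa, which encodes a 40S protein, had a log2 change of -0.62 (SE 0.25). At an unadjusted p under 0.05, 7.05% of all genes were lower and 7.29% higher. Of 14 other genes with TOP mRNAs, 2 were lower (Eif3h and Eef1g) and 1 was higher (Nap1l1) at that threshold, with a median of -0.31, or -0.073 without wild type 1. Of 53 genes of the mitochondrial ribosome, a separate machine, 15 were lower and 2 higher, with a median of -0.30, or -0.14 without wild type 1. Of 27 ribosome biogenesis genes, 2 were lower and 1 higher, with a median of -0.025, or -0.063 without wild type 1. Of 16 genes that control TOP mRNAs, 1 was lower (Cnbp, -0.39) and 1 higher (Larp1, 0.96, SE 0.34), with a median of -0.020, or -0.077 without wild type 1. Larp1, which binds the cap of TOP mRNAs, had 4.81 log2 CPM in wild type 1, against 5.30 in wild type 2 and 6.31 in wild type 3, so for this gene the same library was the lowest wild type. None of these genes passed an adjusted p of 0.05 (edgeR).

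**Figure D5:**
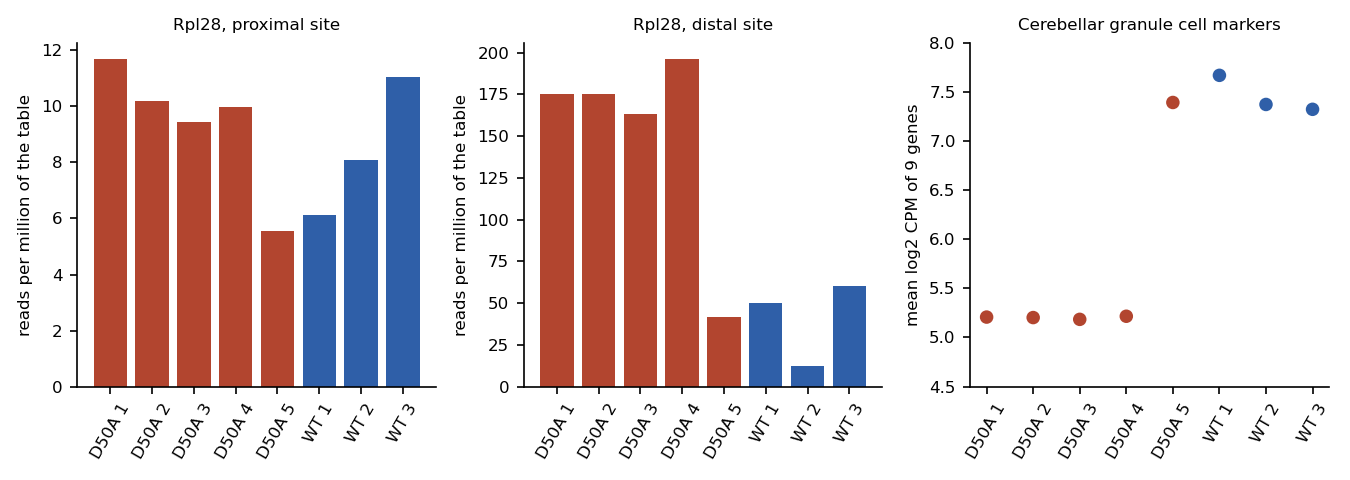
Rpl28 reads at the proximal site (left) and the distal site (middle), scaled to a common library total (reads per 1e6), and the mean log2 CPM of 9 cerebellar granule cell markers (right), with Cstf2 D50A 1 to 5 left of wild type 1 to 3. Distal reads were 163 to 196 in mutants 1 to 4 and 41.7 in mutant 5, against 12.4 to 60.3 in wild type, and mutant 5 has the marker level of the wild types.

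Over all 8 libraries, Rpl28 was the only ribosomal protein gene past a threshold for level, and only with DESeq2. With edgeR it passed only when mutant 5 alone was left out. It had 180, 179, 173, 197 and 48.9 CPM in Cstf2 D50A, against 60.5, 21.7 and 69.4 CPM in wild type. Mutants 1 to 4 were far above all wild types, and mutant 5 was among the wild types. For the summed reads of both sites the log2 change was 1.63 (SE 0.49, adjusted p = 0.343) with edgeR. With DESeq2 it was 1.63 (SE 0.43, adjusted p = 0.0499). The difference lay at the distal site: its reads numbered 1782, 2103, 2060, 2640 and 480 in Cstf2 D50A, against 481, 218 and 715 in wild type. That site lies 5517 bases from the proximal one, while the RefSeq gene is 1583 bases long. Whether the distal reads belong to Rpl28 is not known. The proximal site, which lies nearer to the start of the gene, had 5.57 to 11.7 reads per 1e6 in Cstf2 D50A and 6.13 to 11.0 in wild type, which overlapped. Distal Rpl28 reads were high in mutants 1 to 4, the same 4 libraries in which granule cell markers were low, so the markers and the genotype can be told apart only through mutant 5. With the marker mean as a covariate the log2 change in level was -0.049 (SE 0.52, edgeR), and the part of the granule cells in the Rpl28 level was not tested beyond this fit.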

How the data were processed

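Polyadenylated 3′ ends of total brain RNA were read with the QuantSeq REV kit, per the labels' protocols. Tools listed in the submitters' processing notes are STAR 2.5, HTSeq 0.6.0 and FastQC 0.11.3, with mm9 as the build and no roles stated. The sources used here do not give how sites were picked or how internal priming and strand were handled, so overlapping genes and close copies are uncertain. Both tables hold unnormalized counts of reads, 1 column for each site and library per the file headers, as the authors deposited them; 0 value columns were left unused. Libraries were grouped by the labelled genotype, and p-values measure the spread between separate animals. Libraries of 1 genotype differed by more than sampling noise (chi-square per degree of freedom 4.94 to 114).

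Pairs averaging 20 or more reads per library, with 10 or more in all at each site, were tested, which kept all 44 and 23 ribosomal protein genes. Site share was tested in edgeR 4.0.16 (R 4.3.3) by a quasi-likelihood F test of the site-by-genotype term with library as a block, and level as the summed reads of a pair after TMM scaling; p-values were two-sided and adjusted over each whole table, with a threshold of 0.05. Levels are CPM, relative to the genes of that table. Each edgeR SE is the size of the log2 change divided by the root of F, and the DESeq2 SE is the one DESeq2 reports. A positive change means higher, more distal or more 3′-most exon reads in Cstf2 D50A. The alternatives were DESeq2 1.42.0, limma 3.58.1 (voom), other scalings and filters, a granule marker covariate and leaving out libraries. The scripts were tested on simulated counts.

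The ribosomal protein genes, the translation lists and the marker lists were chosen with earlier results of these data known. Values per library are given for genes past a threshold, for the 6 largest changes in each direction and comparison among genes averaging 50 or more reads, for the 3 most abundant genes of a table, for those whose shares do not overlap, for paralogs and for genes in both tables. Of each other list up to 6 genes could be named. Rpl32, Rpl37a and Rpl38 fall outside this rule and were named after their values had been seen. Promoter windows and gene lengths came from RefSeq (GRCm38.p6), and no position was carried between builds.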

Additional observations from a re-analysis of the deposited data

Results flagged for a closer look

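Of 51 groups of 5 mutant values examined with Dixon's test, in which chance flags about 1 in 20, 4 had a library far from the others, and it was Cstf2 D50A 5 each time. Its distal share of Rpl28 was 88.2%, against 93.7 to 95.2% in the other 4 mutants. Its level of Rpl28 was 5.61 log2 CPM, against 7.44 to 7.62 in the others. Its distal share of Rps23 was 14.1%, against 2.09 to 3.89%. Its distal share of Rpl22l1 was 99.4%, where the others had 99.7 to 99.8%. The granule cell marker mean of this library was 7.39 log2 CPM, against 5.18 to 5.22 in the other mutants and 7.32 to 7.67 in wild type. The part of these markers in the 4 values was not tested.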

How the results depend on the processing

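Of 755 repeats for single genes, 727 kept direction and side of the threshold, 26 turned direction and 2 passed it; the cause was not tested. No paired analysis was possible because the labels used here give neither the litter of each animal nor any other pairing. DESeq2 called 21 pairs for last-exon share, 5 for upstream share and 26 genes for level, Rpl28 being the 1 ribosomal protein gene. At an unadjusted p it found 1 of 44 genes toward the proximal and 5 toward the distal site (4.13% and 8.96% of all pairs). It found 0 of 23 toward the upstream exon and 0 toward the 3′-most exon (2.7% and 8% of all pairs). For level it found 31 of 44 lower and 1 higher in the last-exon table (7.1% and 9.22% of all genes). Of the 23 genes, 14 were lower and 0 higher in the upstream table (7.82% and 9.18%). With limma 15 and 8 genes were lower at an unadjusted p in the last-exon and upstream tables (6.02% and 6.8% of all genes). With the granule cell marker mean as a covariate 3 and 2 were lower (0.356% and 0.267% of all genes) and 0 higher. The medians were -0.34 and -0.38, against -0.013 over all genes in each table. The level change was then -0.049 for Rpl28, -0.66 for Rps23 and 0.078 for Rpl7l1. For Rpl4 it was -0.54 (last-exon table) and -0.50 (upstream table).

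Leaving out 1 library at a time gave the following ranges. Calls over all pairs numbered 0 to 1 (last-exon share), 0 to 236 (upstream share), 0 to 68 (last-exon level) and 0 to 63 (upstream level), the highest counts without mutant 5 except the first, without wild type 3. Rpl28 was called for level only without mutant 5 (1.86, adjusted p = 0.0399, edgeR), so 0 to 1 ribosomal protein genes were called there and 0 in the other comparisons. Genes at an unadjusted p numbered 2 to 11 toward the distal and 0 to 4 toward the proximal site (11 and 4 without mutant 5, where 18.7% and 8.98% of all pairs did). Toward the 3′-most exon there were 0 to 3 (3 without mutant 5, where 17.5% of all pairs did). Toward the upstream exon there were 0 to 2 (2 without wild type 2 or 3, where 1.73% and 5.68% of all pairs did). For level, 2 to 32 were lower and 1 to 2 higher in the last-exon table, and 1 to 16 lower in the upstream table, the fewest without wild type 1 (1.57% and 1.7% of all genes) and the most without wild type 3 (14.5% and 14.7%). The median level change ran from -0.70 to -0.16 and from -0.71 to -0.14, and the difference of library medians (chosen after seeing the data) from -0.67 to -0.14 and from -0.63 to -0.11, again smallest without wild type 1.

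For the genes whose direction turned when 1 library was left out, the level ranges were -0.41 to 0.16 for Rpl22l1, -0.32 to 0.060 for Rpl7l1, -0.52 to 0.013 for Rps27l and -0.099 to 0.18 for Rpl4 in the last-exon table, and -0.26 to 0.024 for Rpl7l1, -0.51 to 0.012 for Rps27l and -0.092 to 0.16 for Rpl4 in the upstream table. The upstream share ranges were -0.92 to 0.084 for Rpl35a, -0.25 to 0.044 for Rps6 and -0.025 to 0.58 for Rps27l.

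Without wild type 1 and mutant 5 together, a choice made after seeing the data, 39 and 26 genes were called for level, 0 of them ribosomal protein genes, and the medians were -0.18 in both tables. At an unadjusted p, 9 genes then leaned toward the distal, 2 toward the proximal site and 0 toward the upstream exon (11.5%, 5.42% and 4.53% of all pairs), 3 were lower and 2 higher in level (8.32% and 8.72% of all genes), and 1 was lower in the upstream table (9.13%). Level was then 0.28 for Rpl22l1, 0.015 for Rpl7l1, and 0.10 (last-exon table) and 0.091 (upstream table) for Rps27l, and upstream share 0.081 for Rps6.

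Distal shares rest on few reads where 1 site dominates, and the 95% Wilson interval of a share was up to 7.48 percentage points to either side (Rps27l), for counting error only.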
